A study of Mus musculus with 8 samples.

Results

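Caspases are proteases made as inactive precursors, and the inhibitors of apoptosis hold them or their activators in check. The genes described here are 8 members of that system: the initiator caspases Casp2, Casp8 and Casp9, the scaffold Apaf1, the executioner caspase Casp6, and the inhibitor of apoptosis genes Xiap, Birc2 and Birc3. They were taken as every probe set whose single gene symbol in the platform annotation was one of these names, which gave 19 probe sets of 45037. No probe set with several symbols included a member. Of the 19, 14 passed the filter on dim signal described below and 5 did not, among them all 3 probe sets of Casp9.

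The samples were mouse embryos at the 2-cell stage, in 2 groups: 4 samples labelled wild type and 4 labelled Brg1 mutant, each of total RNA pooled from 20 embryos and read on 1 Affymetrix mouse array. The series title ties the mutants to BRG1 of maternal origin, the motor subunit of BAF chromatin remodellers, whose gene is Smarca4. Strain, parental age, the mutant allele and any Cre driver are not given in the sources used here, nor any treatment. The samples are called biological replicates in the design text, and nothing further says that they came from separate animals, so a p-value speaks only of how far these 8 samples scatter, which may be technical.

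In cells that die through mitochondria, cytochrome c released into the cytosol lets Apaf1 assemble into the apoptosome, which activates Casp9, and Casp9 then cleaves executioner caspases. Casp8 is activated at death receptors and Casp2 on a separate platform that responds to DNA damage and spindle faults. Xiap binds active caspases directly, whereas Birc2 and Birc3, which encode cIAP1 and cIAP2, act mainly as ubiquitin ligases in signalling from tumour necrosis factor receptors. Oocytes stock messenger RNAs of this system, and the 2-cell embryo carries both that maternal stock and the first transcripts of its own genome.

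Among the 8 genes, 4 had a probe set that was higher in Brg1 mutants and 0 had one that was lower by the test used. Xiap rose 2.95-fold on 1 of its 7 probe sets, Birc2 2.31-fold, Casp6 2.30-fold and Apaf1 1.96-fold on 1 of its 2. Counted only by the brightest tested probe set of each gene, Birc2, Casp6 and Apaf1 passed and Xiap did not (limma adjusted p = 0.468). By that count 7.04% of 11934 genes passed in either direction. Of the 14 tested probe sets, 4 passed upward, 0 downward and 10 did not pass (limma, Benjamini-Hochberg adjusted p under 0.05). Across the array 2.98% of the 22518 tested probe sets passed upward and 3.58% downward. At an unadjusted p under 0.05, 5 of the 14 were higher and 2 were lower, as were 12% and 13.5% of all tested probe sets. Every mutant sample was above every wild type sample for 5 of the 14 and below for 2, as for 7.83% and 9.67% of all tested probe sets. The members' signs were evenly split, with 7 positive and 7 negative. The count of calls fell to 0 without wild type replicate 1 or 4, and the leave-one-out range of each called probe set stands beside it. With arrays weighted by their fit it was 10 of 14, when 11486 of the 22518 tested probe sets passed.

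The 4 mutant arrays differed from one another, which bears on every value that follows. On the brighter of 2 Smarca4 probe sets all mutant samples, at 200.9 to 387.5, lay below all wild type samples, at 612.1 to 796, and the other did not pass (limma adjusted p = 0.963). Of 17 granulosa and cumulus cell markers, 15 had a probe set and 10 of them were higher in mutant replicates 3 and 4 than in all other samples. The share of all probe sets that meet this rule was not computed. Foxl2 met it narrowly, at 189.8 and 186.6 against at most 181.8. Cyp11a1, Has2, Ptx3, Ptgs2 and Amh did not meet it, and Ptx3 and Amh each lay under a bound on background on 7 of 8 arrays. Summed signal of the 15 markers was 577 to 779 in wild type samples, 782 to 857 in mutant replicates 1 and 2 and 16901 to 20663 in mutant replicates 3 and 4. Summed signal of 6 blood and leukocyte markers was 189 to 292, 222 to 251 and 672 to 746 in the same order. That of 6 oviduct markers was 205 to 379, 350 to 374 and 401 to 489, and that of 6 sperm markers 154 to 180, 189 to 223 and 88.4 to 107. Only 3 blood and 2 oviduct markers were higher in mutant replicates 3 and 4 than in all other samples. Cd52 read 360.4 and 453.1 there and at most 48.2 elsewhere, and Ovgp1 360 and 305.2 against at most 221.9. The other such oviduct marker, Krt7, lay under the bound on background on all 8 arrays. Ptprc met the rule narrowly, at 37.1 and 32.3 against at most 31, and was under the bound on 4 arrays. Tyrobp, at 50.5 and 38.8, stayed within the wild type range, and Pax8, at 40.2 and 34.4, was below it. The 10 oocyte and embryo markers measured summed to 18796 to 24872, 46439 to 49236 and 20687 to 23433. Within that list Zar1, Gdf9, Nlrp5 and the dim Mos were higher in every mutant than in every wild type sample, Eif1ax was lower, and the others overlapped. Zar1 and Gdf9 passed (limma adjusted p = 0.000674 and 0.0343). Spike-in controls in mutant replicates 1 and 2 stood at 4.64 and 3.31 times the wild type mean. The ratio of 3 prime to 5 prime actin signal was 16.3 to 21.1 in wild type samples. It was 12.9 to 15.05 in mutant replicates 1 and 2 and 4.88 to 7.04 in mutant replicates 3 and 4. The same ratio for Gapdh was 8.58 to 10.1 in wild type, 6.63 to 6.76 in mutant replicates 1 and 2 and 6.94 to 7.33 in replicates 3 and 4. The part of these differences in the results below was not tested, but each called member is also given for the 2 mutant pairs apart, which share the wild type samples as controls. In pooled embryos a lower signal from fewer cells of a type and from less RNA per cell cannot be told apart.

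Promoter sequences are shown for the 4 genes with a called probe set, and for Birc3 because it is the next protein-coding gene to Birc2 on chromosome 9 and its signal had the opposite sign. Each line holds the 250 bases upstream of a RefSeq start in GRCm38.p6, written 5 prime to 3 prime on the gene's strand. Xiap has 3 entries in that table and Birc2 has 2, of which the first listed is printed. Capitals mark every match on either strand to GGGCGG (the GC box), CCAAT (the CCAAT box), TATAAA (the TATA box) or TGACGTCA (the cyclic AMP response element); no match overlapped another.
Apaf1 (chr10:91082744-91082993, minus strand): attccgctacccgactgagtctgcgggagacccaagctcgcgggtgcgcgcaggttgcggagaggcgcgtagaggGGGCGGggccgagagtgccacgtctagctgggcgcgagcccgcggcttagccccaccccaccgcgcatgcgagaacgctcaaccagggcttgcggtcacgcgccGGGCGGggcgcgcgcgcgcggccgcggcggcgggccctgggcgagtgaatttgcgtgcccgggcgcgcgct
Casp6 (chr3:129901165-129901414, plus strand): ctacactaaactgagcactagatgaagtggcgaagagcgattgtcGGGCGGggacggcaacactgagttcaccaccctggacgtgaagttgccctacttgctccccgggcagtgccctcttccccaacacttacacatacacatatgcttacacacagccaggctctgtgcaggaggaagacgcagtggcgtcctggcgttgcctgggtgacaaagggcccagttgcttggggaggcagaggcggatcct
Xiap (chrX:42068148-42068397, plus strand): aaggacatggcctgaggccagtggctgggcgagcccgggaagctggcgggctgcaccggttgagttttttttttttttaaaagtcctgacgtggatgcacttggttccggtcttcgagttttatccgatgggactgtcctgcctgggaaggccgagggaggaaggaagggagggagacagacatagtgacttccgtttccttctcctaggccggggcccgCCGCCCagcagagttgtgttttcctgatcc
Birc2 (chr9:7837058-7837307, minus strand): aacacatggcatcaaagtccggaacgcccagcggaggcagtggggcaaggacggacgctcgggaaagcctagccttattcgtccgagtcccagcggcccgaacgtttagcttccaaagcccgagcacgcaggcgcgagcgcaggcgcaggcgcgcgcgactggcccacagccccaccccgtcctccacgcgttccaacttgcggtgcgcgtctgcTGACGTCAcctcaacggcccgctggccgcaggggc
Birc3 (chr9:7873171-7873420, minus strand): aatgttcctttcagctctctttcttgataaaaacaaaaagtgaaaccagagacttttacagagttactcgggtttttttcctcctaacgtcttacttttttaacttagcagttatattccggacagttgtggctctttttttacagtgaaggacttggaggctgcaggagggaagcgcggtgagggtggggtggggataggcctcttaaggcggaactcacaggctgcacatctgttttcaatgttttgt

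Among the printed promoters, those of Apaf1, Casp6 and Xiap held GC box letters, and that of Birc2 held only the cyclic AMP response element letters. The second Birc2 entry, not printed, held 2 GC box matches and no cyclic AMP response element. That element was found in 1.55% of 32851 RefSeq promoters of the same length, the GC box in 32.7%, the CCAAT box in 33.8% and the TATA box in 12.4%. Over all 11 entries of the 8 members, 7 held a GC box, 2 a CCAAT box, 1 a TATA box and 1 the cyclic AMP response element. The Birc3 promoter held none of the 4. It counted 6 CpG dinucleotides, the same as the median promoter, whereas the printed Birc2 promoter counted 31, the second Birc2 entry 19 and Apaf1 42. A match is a description of letters and not of a bound site.

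Casp2, an initiator caspase, had 1 probe set (1448165_at). It read 130.4, 182.3, 123.5 and 177 in wild type replicates 1 to 4 and 261.6, 225.2, 296.4 and 291.6 in mutant replicates 1 to 4. All mutant samples were above all wild type samples, by 153 ± 30.6 against 269 ± 32.8 (SD, n = 4 each), yet the difference missed the threshold (log2 change 0.82, SE 0.240, limma adjusted p = 0.0648). It passed on mutant replicates 3 and 4 alone (log2 change 0.96, limma adjusted p = 0.0111) and without mutant replicate 2 (limma adjusted p = 0.0415), and on replicates 1 and 2 alone it did not (log2 change 0.68, limma adjusted p = 0.154).

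Casp8, the caspase of death receptors, read 66.6, 93.4, 74.7 and 68.6 in wild type and 90.8, 91.4, 110.6 and 94.4 in mutant samples on its only probe set. Wild type replicate 2 lay within the mutant range, so the groups overlapped. The log2 change of 0.36 (SE 0.250) did not pass (limma adjusted p = 0.401), and neither mutant pair alone gave a call. It passed with array weights (log2 change 0.52, limma adjusted p = 0.0422).

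Casp9, the initiator caspase of the apoptosome, was dim on all 3 probe sets, and none entered the test. The probe set 1457816_at read 47.5, 54.7, 12.7 and 27.1 in wild type samples and 9.6, 12, 10.9 and 8.6 in mutants. All mutant samples were lower, but all 4 mutant arrays and 1 wild type array were under the bound on background, so no fold is given. The probe set 1437537_at overlapped between groups, at 3.7 to 25.6 in wild type and 23.9 to 41.7 in mutant samples, with 3 wild type arrays and 1 mutant array under the bound. The third, 1426125_a_at, overlapped too, at 4.2 to 33.3 and 5.5 to 27.2.

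Apaf1, the scaffold on which Casp9 is activated, was read by 2 probe sets that moved in opposite directions. The brighter, 1452870_at, gave 183.8, 135.1, 173 and 146.7 in wild type and 307.9, 422.1, 255.5 and 277.9 in mutant samples, and the groups did not overlap. It rose 1.96-fold, from 160 ± 22.6 to 316 ± 74.0 (SD, n = 4 each; log2 change 0.97, SE 0.245, limma adjusted p = 0.0432). On mutant replicates 1 and 2 alone the log2 change was 1.19 (limma adjusted p = 0.0314), and on replicates 3 and 4 alone 0.75 (limma adjusted p = 0.0221). The call was lost in 6 of 8 fits that left out 1 sample, those without any 1 wild type replicate and without mutant replicate 3 or 4 (limma adjusted p between 0.0459 and 0.127 over the 8).

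The dimmer Apaf1 probe set, 1450223_at, read 72.8, 74.5, 112.2 and 104.8 in wild type and 64.3, 19.3, 42 and 44.4 in mutant samples. Here all mutants were below all wild type samples, and mutant replicate 2, the highest on the other probe set, was the lowest. Its 19.3 lay under the bound on background of that array, 37.7, and also enters the ratio given below. The log2 change of -1.20 (SE 0.392) did not pass (limma adjusted p = 0.0920). It passed on mutant replicates 3 and 4 alone (log2 change -1.05, limma adjusted p = 0.0172) and without mutant replicate 1 (limma adjusted p = 0.0413). Without mutant replicate 2 the log2 change was -0.86 and did not pass (limma adjusted p = 0.0931). The log2 ratio of the 2 Apaf1 probe sets within an array differed by 2.16 between the groups, without overlap (exact permutation p = 0.0286, two-sided, the smallest possible with 4 against 4; adjusted p = 0.105 over 22 pairs of probe sets of 1 gene). The position of each in the transcript was not known.

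Casp6, an executioner caspase that cleaves nuclear lamins, was tested on 1 of its 2 probe sets, 1415995_at. Wild type samples read 83.3, 88.9, 70.7 and 93.5, and mutant samples 130.5, 191.8, 217.6 and 253.4. The groups did not overlap, and mutant replicate 1 was the closest to wild type. Casp6 rose from 84.1 ± 9.86 to 198 ± 51.8 (SD, n = 4 each; log2 change 1.20, SE 0.272, limma adjusted p = 0.0310). Mutant replicates 1 and 2 alone gave a log2 change of 0.92 with no call (limma adjusted p = 0.0797), and replicates 3 and 4 alone gave 1.49 (limma adjusted p = 0.000975). Leaving out 1 sample ended the call in 6 of 8 fits, again those without any 1 wild type replicate and without mutant replicate 3 or 4 (limma adjusted p between 0.0131 and 0.0955 over the 8). The other Casp6 probe set, 1458715_at, was under the filter and overlapped, at 15.2 to 32.8 in wild type and 20.7 to 45.6 in mutant samples.

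**Figure D1:**
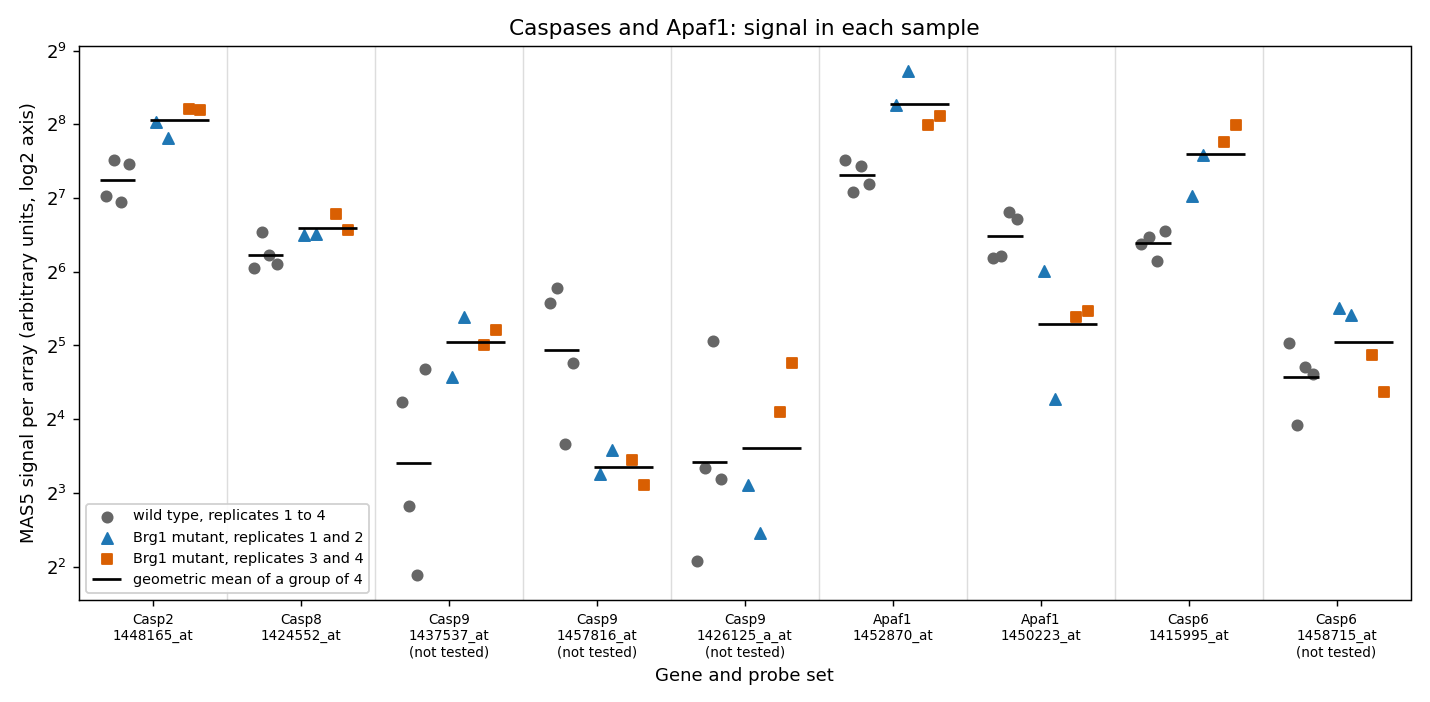
MAS5 signal (log2 axis) of each caspase and Apaf1 probe set in every sample, with grey circles for wild type, blue triangles for mutant replicates 1 and 2, orange squares for mutant replicates 3 and 4 and bars for geometric means of 4 samples. Casp2, Casp6 and Apaf1 1452870_at separate the groups upward, Apaf1 1450223_at and the dim Casp9 1457816_at downward, and the other 4 probe sets overlap.

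Xiap, the direct caspase inhibitor, gave different readings on its probe sets: 1 of 7 rose and 6 did not pass, and 2 of the 7 had a positive and 5 a negative log2 change. The probe set that rose, 1437533_at, read 88.4, 108.1, 94.9 and 77.4 in wild type and 303.2, 197.9, 282.2 and 313.8 in mutant samples. Every mutant sample was above the wild type range, mutant replicate 2 by the least. It rose from 92.2 ± 12.8 to 274 ± 52.6 (SD, n = 4 each; log2 change 1.56, SE 0.249, limma adjusted p = 0.0125). The log2 change was 1.42 on mutant replicates 1 and 2 alone and 1.70 on replicates 3 and 4 alone (limma adjusted p = 0.0222 and 0.000458). The call held in 6 of 8 fits that left out 1 sample and was lost without wild type replicate 1 or 4 (limma adjusted p = 0.0562 for each). Over the 8 fits the limma adjusted p was between 0.00869 and 0.0562. It was the only member call kept under every scaling and filter tried.

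The other 6 Xiap probe sets did not follow it. The probe set 1456088_at, which the platform annotation ties to the same source sequence as 1437533_at, read 69.2, 104.8, 76.5 and 47.6 in wild type and 160.8, 154.1, 83.4 and 85.4 in mutant samples. Mutant replicates 1 and 2 were above all wild type samples and replicates 3 and 4 within their range (log2 change 0.69, limma adjusted p = 0.247). The brightest, 1450231_a_at, read 214.8, 170.8, 326.8 and 254 in wild type and 183, 445.9, 103.4 and 50.1 in mutant samples, so that 1 mutant sample was above and 2 were below the wild type range (log2 change -0.71, limma adjusted p = 0.468). It shares its source sequence in the annotation with 1421394_a_at and 1450232_at. On 1421394_a_at wild type samples read 88.7 to 126.7 and mutants 118.9, 96.2, 60.1 and 41.7, with replicates 3 and 4 below the wild type range (log2 change -0.64, limma adjusted p = 0.287).

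Both of these last probe sets passed downward on mutant replicates 3 and 4 alone (log2 change -1.71 and -1.19, limma adjusted p = 0.00418 and 0.00787). On replicates 1 and 2 alone their log2 changes were 0.28 and -0.10, and neither was called. The remaining probe sets, 1450232_at, 1426636_a_at and 1453385_at, stood at log2 changes of -0.25, -0.29 and -0.35, with no call in the full fit or in either pair. The signs of 1450231_a_at, 1426636_a_at and 1453385_at differed between the fits on the 2 mutant pairs. Of the 21 pairs of Xiap probe sets, the within-array log2 ratio separated the groups for 5. The share of such pairs over other genes was not computed. Many of the Xiap pairs have a probe set in common, so the count is not one of independent results. With the Apaf1 pair, 6 of 22 had the smallest unadjusted p that 4 against 4 samples allow, 0.0286 (exact permutation). After adjustment 0 of 22 pairs passed (exact permutation, smallest adjusted p = 0.105). A single pair could not have passed, however clean, because that smallest p adjusted over 22 pairs passes only if many pairs reach it together. The adjusted count therefore says little about any 1 pair.

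Birc2, which encodes the ubiquitin ligase cIAP1, had 1 probe set, 1418854_at. It read 123.8, 131, 72.2 and 130.8 in wild type and 266.5, 183.2, 277.5 and 322.7 in mutant samples. The groups did not overlap, and wild type replicate 3 lay far below the other 3 wild type samples. Birc2 rose from 114 ± 28.4 to 262 ± 58.2 (SD, n = 4 each; log2 change 1.21, SE 0.290, limma adjusted p = 0.0368). On mutant replicates 1 and 2 alone the log2 change was 0.99 with no call (limma adjusted p = 0.0970), and on replicates 3 and 4 alone it was 1.43 (limma adjusted p = 0.00402). The call was lost in 6 of 8 fits that left out 1 sample, those without any 1 wild type replicate and without mutant replicate 3 or 4 (limma adjusted p between 0.0204 and 0.103 over the 8). The RefSeq table lists the symbol Birc3 as a synonym of Birc2 and the reverse, so the identity of each probe set rests on its gene identifier.

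Birc3, which encodes cIAP2 and adjoins Birc2, had the opposite sign. On 1421392_a_at wild type samples read 4995.4, 4298.2, 5478.1 and 4680.9 and mutant samples 3372.3, 4223, 1946.6 and 2427.1. All mutants were below all wild type samples, mutant replicate 2 only just so and replicates 3 and 4 by the widest margin. The means were 4863 ± 499 and 2992 ± 1012 (SD, n = 4 each), and the log2 change of -0.76 (SE 0.278) did not pass (limma adjusted p = 0.123). It passed on replicates 3 and 4 alone (log2 change -1.16, limma adjusted p = 0.000579), with quantile normalization (log2 change -0.92, limma adjusted p = 0.0303), with array weights (limma adjusted p = 0.000196) and without mutant replicate 2 (limma adjusted p = 0.0363). On replicates 1 and 2 alone it did not (log2 change -0.36, limma adjusted p = 0.265). The other Birc3 probe set, 1425223_at, lay under the bound on background on all 8 arrays.

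**Figure D2:**
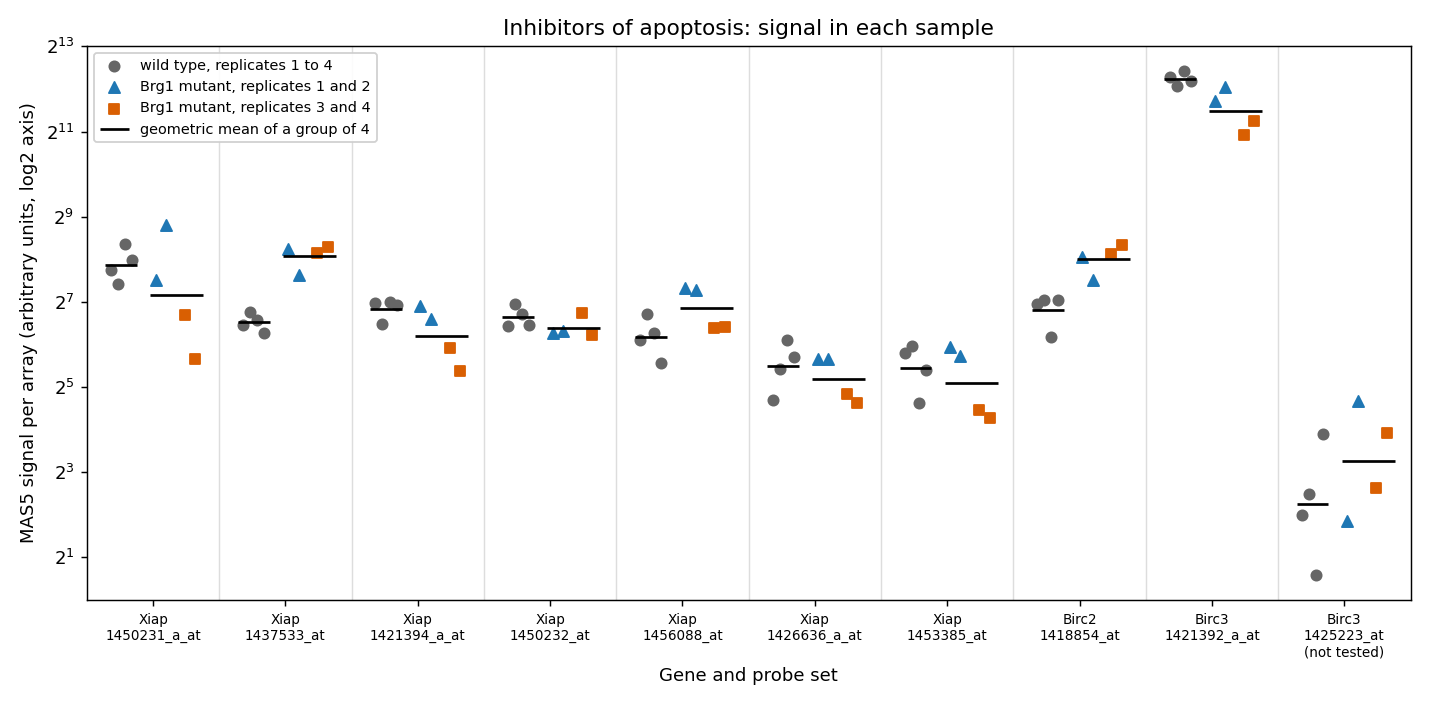
MAS5 signal (log2 axis) of each Xiap, Birc2 and Birc3 probe set in every sample, with symbols as grey circles for wild type, blue triangles for mutant replicates 1 and 2 and orange squares for mutant replicates 3 and 4, and bars for geometric means of 4 samples. Xiap 1437533_at and Birc2 lie higher in all mutants, Birc3 1421392_a_at lies lower, and the other Xiap and Birc3 probe sets overlap.

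With the mutant pairs taken apart, 2 of the 14 tested member probe sets passed upward and 0 downward on replicates 1 and 2, where 3.6% and 3.11% of all tested probe sets did; 7 of the 14 had an unadjusted limma p under 0.05, as had 25.5% of all tested probe sets. On replicates 3 and 4, 5 passed upward and 4 downward, where 18.3% and 23.2% of all tested probe sets did. The member calls shared by both were Apaf1 1452870_at and Xiap 1437533_at, in fits that used the same 4 wild type samples. Casp6, Birc2 and Xiap 1437533_at had the larger log2 change on replicates 3 and 4, which had the higher summed granulosa marker signal. Apaf1 1452870_at had the smaller change there. The difference between the pairs was not tested, since the pairs are no groups of the labels.

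**Figure D3:**
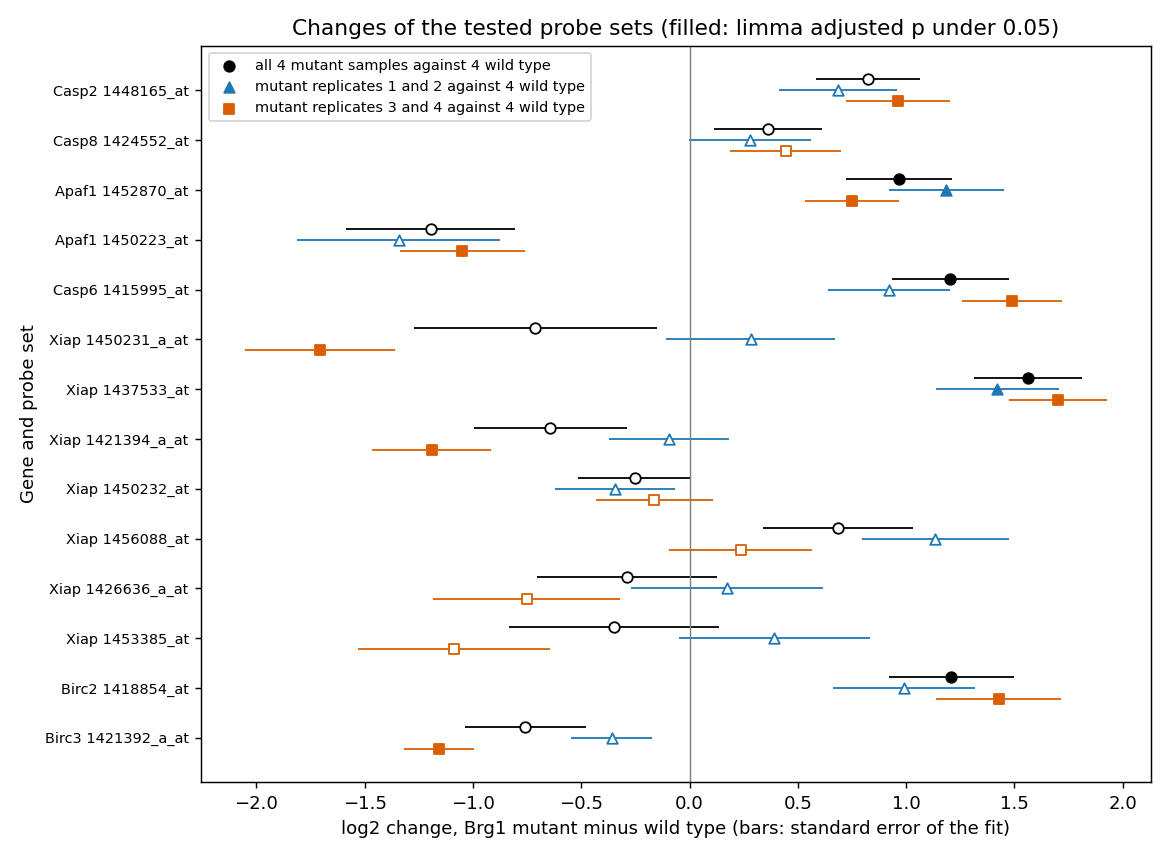
Log2 change of mutant minus wild type for the 14 tested probe sets, with bars for the standard error and filled symbols where the limma adjusted p was under 0.05, for all 4 mutant samples (black), replicates 1 and 2 (blue) and replicates 3 and 4 (orange). Apaf1 1452870_at and Xiap 1437533_at are filled in all 3 fits, and Xiap 1450231_a_at lies at 0.28 in one pair and -1.71 in the other.

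**Figure D4:**
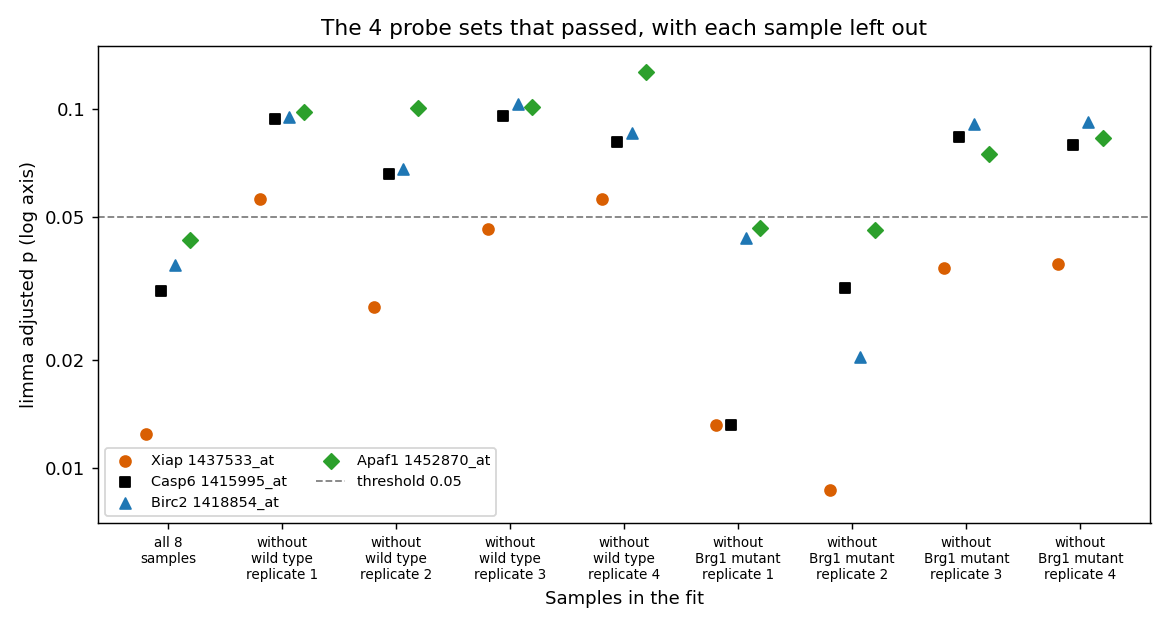
Limma adjusted p (log axis) of the 4 probe sets that passed, in the fit on all 8 samples and in the 8 fits that each leave out 1 sample, with the threshold of 0.05 dashed. Xiap 1437533_at stays at or below 0.0562, whereas Casp6, Birc2 and Apaf1 rise above the threshold in 6 of 8 fits each.

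Of 35 other genes of the pathway with a probe set, 12 were under the filter and 23 were tested, each by its brightest tested probe set. None of the 23 passed, against 7.04% of 11934 genes called in the same way, and 2 had an unadjusted p under 0.05 (limma, lowest adjusted p = 0.0773). Their median log2 change was 0.05, against -0.05 over all genes, with 13 positive and 10 negative. The smallest adjusted p belonged to Xaf1, which encodes a partner that counteracts Xiap: its signal was 90.5 in wild type and 349 in mutant samples on average (log2 change 1.62, limma adjusted p = 0.0773), and all mutants were above all wild type samples. Its log2 change was 0.60 on mutant replicates 1 and 2 alone and 2.65 on replicates 3 and 4 alone. Cflar, the catalytically inactive relative of Casp8 that blocks it at death receptors, averaged 101 and 55.7 (log2 change -1.10, limma adjusted p = 0.157), and its groups overlapped. The Cflar log2 change was -0.29 on mutant replicates 1 and 2 alone and -1.92 on replicates 3 and 4 alone (limma adjusted p = 0.570 and 0.000653). Traf1, an adaptor that binds Birc2 and Birc3, and Cycs, cytochrome c, had log2 changes of 0.62 and 0.42 (limma adjusted p = 0.245 and 0.273).

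Of the inhibitor antagonists in the list, Diablo averaged 262 and 270 and was not called (log2 change 0.07). Htra2 read 66 to 163.6 in wild type and 23.5, 50, 266.1 and 251.4 in mutant samples, so that mutant replicates 1 and 2 were below and replicates 3 and 4 above the wild type range. Its log2 change was -0.10 with no call, -1.56 on replicates 1 and 2 alone (limma adjusted p = 0.0623) and 1.36 on replicates 3 and 4 alone (limma adjusted p = 0.0110). The survivin gene Birc5 and the giant inhibitor gene Birc6 stood at log2 changes of -0.21 and 0.01, with no call either. On mutant replicates 3 and 4 alone 10 of the 23 passed, 6 higher and 4 lower, where 19.2% and 24.4% of genes called in the same way did. On replicates 1 and 2 alone 0 did, against 7.44% of genes (limma, 2 of the 23 at an unadjusted p under 0.05).

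The genes whose log2 signal followed each called member most closely over the 8 samples are a description only, since both series rest on the same arrays and on the shift between groups. Closest to Xiap 1437533_at were Rabggtb, Hikeshi and Pnrc2 (Pearson r = 0.995, 0.990 and 0.988). Closest to Casp6 were Xpc, Pxdn and Ptprf (Pearson r = 0.989, 0.988 and 0.985). Closest to Birc2 were Tbccd1, Rab10os and Xpa (Pearson r = 0.985, 0.978 and 0.978). Closest to Apaf1 1452870_at were Insyn2b, Bik and Snx18 (Pearson r = 0.987, 0.985 and 0.980), of which Bik, a pro-apoptotic BH3-only gene, averaged 141 in wild type and 409 in mutant samples.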

How the data were processed

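Per the submitters' processing notes the authors deposited MAS5 intensities, linear signals with 1 value per probe set; the version of MAS5 was not stated there. A trimmed mean (2% off each end) of 150.001 was found on every array, so the scaling was left as deposited. After a floor of 1 and log2, 64 control probe sets were dropped and the brighter 50% by mean over all samples (at least 5.25) were tested. The test was limma 3.58.1 in R 4.3.3 (lmFit and trended eBayes, two-sided, Benjamini-Hochberg over 22518 probe sets, threshold 0.05), which was also tested on simulated data. Folds are back-transformed log2 changes, and SE is that of the fit. The bound on background is each array's 95th percentile of 27 Bacillus control probe sets, 14.7 to 37.7. The number of arrays limits the precision.

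Platform annotation gave 1 symbol to 34945 probe sets, several to 932 and none to 9160. By gene identifier, 34741 matched RefSeq of GRCm38.p6 (0 symbols changed), which also gave promoters for 8 of 8 members. Named were every member probe set, other pathway genes that passed or else the 4 with the smallest adjusted p, and the 3 genes closest to each called member by Pearson r. Diablo, Htra2, Birc5 and Birc6 were singled out, and within-gene ratios tested by exact permutation (70 assignments, scipy 1.17.1), after values were seen. Other settings tried were quantile, median and 75th percentile scaling, the brighter 30% or all probe sets, an added 12.5 before log2, an untrended prior, array weights, a replicate block, and fits lacking 1 sample or 1 mutant pair. Members and lists were chosen with earlier results of these data known.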

Additional observations from a re-analysis of the deposited data

Results flagged for a closer look

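In 2 of 38 groups of 4 samples, formed by the 19 member probe sets in each genotype, a single sample stood apart from the other 3 in log2 signal by more than the limit of Dixon's test. Chance alone gives about 1 such group in 20. For Birc2, wild type replicate 3 read 72.2 and its gap took 0.905 of the range of the wild type samples. Without that sample the Birc2 log2 change was 1.001 (limma adjusted p = 0.103). For Xiap 1421394_a_at, wild type replicate 2 read 88.7 and its gap took 0.880 of the range.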

How the results depend on the processing

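The number of tested member probe sets that passed was 4. The count stayed within 1.5 times of that with quantile normalization, 75th percentile centring, the upper 30%, a pseudocount or no trend. With the upper 30%, however, only 7 member probe sets were tested rather than 14. With quantile normalization the 4 were 3 higher and 1 lower. It was 1 with median centring, 2 with no filter, 10 with array weights, 0 with the replicate number as a block, 2 on mutant replicates 1 and 2 alone and 9 on mutant replicates 3 and 4 alone, and ran from 0 to 6 with each sample left out. Over all probe sets 1478 passed. There were 11486 with array weights, 15 with the replicate block, 9358 without mutant replicates 1 and 2, and 73 to 2926 with each sample left out. Of the 23 other pathway genes, 0 passed, 12 with array weights, 10 without mutant replicates 1 and 2, and 0 to 2 with each sample left out. The cause of these shifts was not tested.

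Quantile normalization gave 494 higher and 794 lower probe sets, median centring 421 and 1557, 75th percentile centring 496 and 1104, and no filter 642 and 589, against 671 and 807. The median change over all tested probe sets moved from -0.05 to -0.22 with median centring and to -0.19 with 75th percentile centring. All 14 member probe sets kept their sign under each scaling. Signs turned only without mutant replicates 3 and 4, for Xiap 1450231_a_at (0.28), 1426636_a_at (0.17) and 1453385_at (0.39), where the adjusted p was between 0.617 and 0.840. With median centring the adjusted p was 0.0529 for Birc2, 0.0531 for Casp6 and 0.0773 for Apaf1 1452870_at. With quantile normalization Birc3 passed downward and Apaf1 1452870_at did not pass (limma adjusted p = 0.0303 and 0.0819). With no filter, Birc2 and Apaf1 1452870_at did not pass (limma adjusted p = 0.0506 and 0.0572).

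Groups share replicate numbers. Deviations from group means of same-numbered samples correlated at 0.02, -0.18, -0.13 and -0.09, and those of other pairs of samples between -0.15 and 0.20. Deviations of the mutant samples also hold the difference between the 2 mutant pairs, so these values cannot tell whether the numbers pair samples. With the replicate block 0 of 14 member probe sets passed (limma, 6 at an unadjusted p under 0.05), with adjusted p of 0.0676 for Xiap 1437533_at, 0.0841 for Casp6, 0.0974 for Birc2 and 0.120 for Apaf1 1452870_at.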
